A study of Mus musculus with 6 samples.

Results

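In mouse splenic B cells, 10 genes of polyamine metabolism and hypusination were followed: Odc1, Srm, Sms, Amd1, Oaz1, Azin1, Sat1, Smox, Dhps and Eif5a. They were chosen by symbol and make up 10 of the 23420 genes in the expression files, and all 10 are listed there. B cells were purified with beads from the spleens of 3 wild-type BALB/c mice, 7 to 11 weeks old. For 4 hours, 10 M cells at 10 M per mL were either stimulated with CpG ODN 1826 at 10 µg/mL, a synthetic oligonucleotide agonist of the endosomal DNA sensor TLR9, or left unstimulated. Each group held 3 samples, numbered 1 to 3. In both groups samples 1 and 2 were female and sample 3 male. The groups share strain, genotype, tissue and purification, and they differ in the agonist. The cells were a bulk of all splenic B cell subsets that the beads left, so no value below belongs to 1 subset.

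Polyamines (putrescine, spermidine and spermine) are small cations that bind RNA and DNA, and growing lymphocytes are known to need them. ODC1 makes putrescine from ornithine, spermidine synthase (SRM) and spermine synthase (SMS) then extend it with aminopropyl groups, and AMD1 supplies the donor of these groups from S-adenosylmethionine. Antizyme (OAZ1) binds ODC1 and sends it to the proteasome, the antizyme inhibitor AZIN1 resembles ODC1 and titrates antizyme away, and SAT1 and SMOX lead spermidine and spermine back toward putrescine. Spermidine also has a use in translation: DHPS moves part of it onto a single lysine of the factor eIF5A, DOHH hydroxylates the product, and the resulting hypusine is needed for eIF5A to help ribosomes through difficult peptide bonds.

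Values are log2 CPM (CPM are the reads of a gene per M reads counted on genes), and log2FC is the mean of CpG-stimulated minus the mean of unstimulated samples. A gene without reads has the value -5.15, and 10 reads correspond to -0.76. A gene was tested with limma where at least 3 samples were above the value of 10 reads, and FDR is the Benjamini-Hochberg adjusted p over all 11233 genes tested. The labels name 3 mice for the 6 samples but do not say which mouse gave which sample. The p values take the 6 samples as independent and measure the spread between these samples. The values had been adjusted before deposit in a way that touches replicate numbers. This spread is therefore that of adjusted values, and the p values may be too small. As the values were quantile normalized, a change in total RNA per cell cannot be seen in them, and fewer cells of a type cannot be told apart from less RNA per cell.

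The cell type on the labels was checked against marker genes. All 7 B cell markers were above 10 reads, with a median of 9.05 log2 CPM. Their summed level was 2438 to 2796 CPM with CpG and 3706 to 4356 CPM without. The T cell receptor genes Cd3d, Cd3e and Cd3g and the coreceptor genes Cd4 and Cd8a were below 10 reads on average, while Cd2 and Lck were above. The summed T cell list was at 139 to 163 CPM with CpG and 169 to 185 CPM without. Nearly all of it came from Cd2 and Lck, which moved in opposite directions (log2FC -2.61 and 0.67). The sum was therefore not read as an amount of T cells. Myeloid markers summed to 9.98 to 15.3 CPM and 7.16 to 13.8 CPM, and NK cell markers to 1.47 to 2.58 CPM and 2.98 to 3.44 CPM, in the same order. Of the NK markers only Prf1 was above 10 reads on average, and it fell (log2FC -1.57). Klrb1c, not tested, was higher with CpG (-0.13 against -4.65 log2 CPM). Among myeloid markers Adgre1 rose (0.83), Csf1r and Cd14 fell (-1.61 and -1.73), and Lyz2 and Itgam did not pass the test. These 2 sums were likewise not read as amounts of cells. The list for plasmacytoid dendritic cells reached 127 to 134 CPM with CpG and 252 to 261 CPM without, nearly all of it from Bst2 and Tcf4, which other cells also express; its defining marker Siglech was below 10 reads. Of 9 erythroid markers, 5 were above 10 reads and 4 (Hba-a1, Hba-a2, Hbb-b1, Hbb-b2) were listed at the no-read value in all 6 samples. All 5 were highest in replicate 2 of both groups, a pattern held by 14.6% of the tested genes. The part of these other cells in the values below was not tested. Leaving out replicate 2, as done below, removes the samples highest in these 5 markers, but the other samples also held erythroid reads.

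Sequences are shown first for 2 points. The first, shown as background, is the site of hypusine, which was not measured and on which no value below depends. The coding bases around the lysine codon of this site, residue 50, were read from the GENCODE transcripts of Eif5a and of its paralog Eif5a2. The codon is in capitals. In Eif5a it lies on chromosome 11 between 69918019 and 69919186 on the minus strand, and in Eif5a2 on chromosome 3 between 28782181 and 28782730 on the plus strand (GRCm38). Both stretches are exonic and coding, and both cross an exon junction.
Eif5a: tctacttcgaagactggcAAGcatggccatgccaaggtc
Eif5a2: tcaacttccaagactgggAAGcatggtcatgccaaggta
The coding sequences of Eif5a and Eif5a2 are 73.2% identical over 459 aligned bases, and no stretch of 75 bases, the length of a read, of Eif5a2 occurs in another annotated gene.

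The second point is a gene that cannot be read here. Amd1 (chr10:40287458-40302186, minus strand) has a copy on the same chromosome, Amd2. Their coding sequences are identical at 1001 of 1002 bases, and 81.9% of the 75-base stretches of the Amd1 transcript occur in another annotated gene. The stretch around the base that differs, coding bases 766 to 825, is shown with that base in capitals. It lies in Amd1 at chr10:40290157-40290216 and in Amd2 at chr10:35710735-35710794, both on the minus strand (GRCm38).
Amd1: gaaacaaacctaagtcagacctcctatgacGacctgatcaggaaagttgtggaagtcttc
Amd2: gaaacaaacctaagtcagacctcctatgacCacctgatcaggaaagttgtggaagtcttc
Both genes were listed at -5.15 log2 CPM, the no-read value, in all 6 samples. How reads with several matches were counted is not given in the sources used here, and whether shared stretches bear on these values was not tested. Sat2, a relative of Sat1 without such stretches, was also listed at the no-read value in all 6 samples.

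In these B cells, CpG was accompanied by higher mRNA of every measurable synthesis gene of the 10, of the antizyme inhibitor and of eIF5A, and by lower mRNA of the catabolic gene Sat1. Of the 10 genes, 8 had enough reads to be tested. Among the 8, 5 rose (Srm, Eif5a, Azin1, Odc1 and Sms), 1 fell (Sat1), and 2 did not pass the test (Smox and Dhps). The response of these cells was broad: of all tested genes, 37.6% rose and 36.7% fell at the same FDR of 0.05. At a log2FC over 1 the set held 4 of the 8 (Srm, Eif5a, Azin1 and Odc1), beside 15.8% of all tested genes. Sat1 was the 1 gene of the set below -1, beside 15.3% of all tested genes. Between groups, 6 of the 8 genes had no overlapping values, as did 77.7% of all genes tested. The median log2FC over the 8 was 0.99, and over all tested genes it was 0.0033, with an interquartile range of -0.62 to 0.65.

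**Figure D1:**
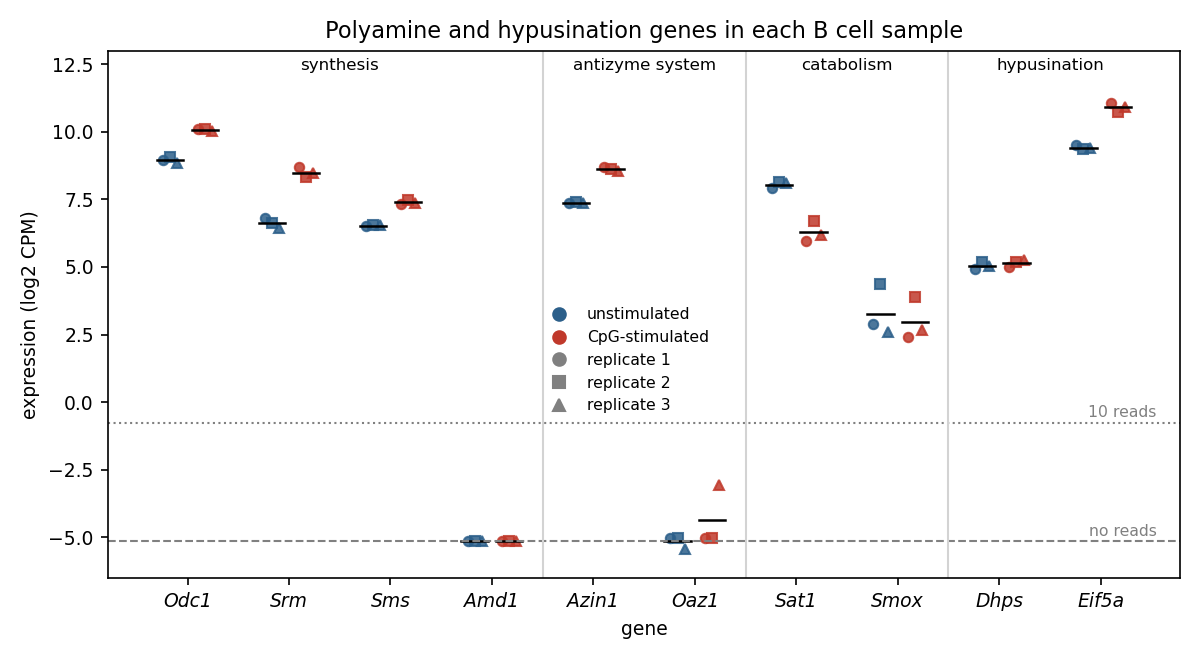
Expression (log2 CPM, y axis) of the 10 genes, grouped by role on the x axis, in each unstimulated (blue) and CpG-stimulated (red) sample. Symbols mark the replicate number, black bars the group mean of 3 samples, and lines the values of 10 reads and of no reads. Odc1, Srm, Sms, Azin1 and Eif5a sit higher with CpG without overlap, Sat1 lower, and Amd1 and Oaz1 lie at or near the no-read line.

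Odc1 (chr12:17544794-17551505, plus strand) encodes ornithine decarboxylase, the first and usually limiting enzyme of the pathway. In replicates 1 to 3 it was at 10.10, 10.12 and 10.03 log2 CPM with CpG and at 8.98, 9.07 and 8.86 without. The lowest stimulated sample was thus well above the highest unstimulated one. The means were 10.08 ± 0.05 and 8.97 ± 0.10 (SD, n = 3 each), a log2FC of 1.11 (SE 0.07, 95% interval 0.96 to 1.27) or 2.17-fold (FDR from limma 3.06e-07). Of all tested genes, 86.4% had a lower log2FC than Odc1. Stretches of 75 bases that occur in other annotated genes made up 30.5% of the Odc1 transcript and came from 13 genes.

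Srm (chr4:148591503-148594993, plus strand), which makes spermidine, had the largest log2FC of the 8. Its stimulated samples were at 8.69, 8.32 and 8.47 log2 CPM and its unstimulated samples at 6.80, 6.63 and 6.45. The groups were separated by more than 1 unit, and replicate 1 was highest in both. Means of 8.50 ± 0.19 and 6.63 ± 0.18 (SD, n = 3 each) gave a log2FC of 1.86 (SE 0.11, 1.62 to 2.11) or 3.64-fold (limma FDR 2.04e-07). This was above 96.1% of all tested genes.

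Sms (chrX:157443855-157492287, minus strand), which makes spermine, rose least of the 3 synthesis genes. It was at 7.33, 7.49 and 7.37 log2 CPM with CpG and at 6.51, 6.55 and 6.54 without. Neither group had a sample near the other. The means were 7.40 ± 0.08 and 6.53 ± 0.02 (SD, n = 3 each), with a log2FC of 0.86 (SE 0.06, 0.73 to 1.003) or 1.82-fold (limma FDR 7.67e-07). A pseudogene, Sms-ps, holds 28.2% of the 75-base stretches of Sms.

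Neighbouring steps were set against each other within each sample. The log2 ratio of Srm to Sms was 1.36, 0.83 and 1.10 in stimulated and 0.29, 0.08 and -0.09 in unstimulated replicates 1 to 3. All 3 stimulated ratios were above the unstimulated ones. The mean ratio was 1.001 higher with CpG, with an exact two-sided permutation p of 0.1, the smallest that 3 against 3 samples can give, and 0.15 after adjustment over the 3 ratios run.

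The E-box factors were listed beside these enzymes because MYC, bound with its partner MAX to the motif CACGTG, is known to act on Odc1. Myc itself was at 11.01, 10.70 and 10.91 log2 CPM with CpG and at 9.96, 9.88 and 9.63 without. Its samples did not overlap, and its log2FC was 1.05 (SE 0.10, limma FDR 7.77e-06). Mycn was far lower, at 1.62 ± 0.47 and 0.25 ± 0.45 log2 CPM (SD, n = 3 each), and rose by a log2FC of 1.36 (SE 0.31, limma FDR 0.00255). Max did not pass the test, with a log2FC of 0.11.

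To place the motif beside these values, windows from 250 bases before to 50 bases after each RefSeq start (GRCm38.p6) were searched on both strands for CACGTG and for the variant CACGCG, whose other strand reads CGCGTG. Of 32851 windows of all genes, 7.15% held CACGTG and 9.27% held CACGCG. Counted by gene, with any window of a gene, these were 8.09% and 10.5% of 27025 genes. Of the 10 genes, 8 had windows, with 6 windows for Eif5a, 2 for Sms and 1 for each of the others. Srm and Azin1, which both rose, had no window and were not searched. Matches lay in Odc1, Sms, Oaz1 and Eif5a, and none of these letters were found in the windows of Amd1, Sat1, Smox and Dhps. CACGTG was found only for Sms and Eif5a, and the 2 matches of Odc1 were of the variant CACGCG. Of the genes with matches, Odc1, Sms and Eif5a rose, and Oaz1, with CACGCG at -212, was not tested. More bases were searched for Eif5a and Sms than for genes with 1 window. The share of all genes with either motif was not counted, and whether matches go with a rise was not tested. For Odc1, Sms and Eif5a only, the matches before the start are shown, 30 bases each, with the motif in capitals and read along the strand of the gene. Positions of the first motif base are counted from the start, with bases before it negative. In Odc1 they are -180 and -101 (chr12:17544681-17544710 and chr12:17544760-17544789). In Sms they are -196 and -140, from 2 different starts (chrX:157492466-157492495 and chrX:157491491-157491520). In Eif5a they are -74 and -178, counted from 2 of its 6 starts (chr11:69921443-69921472 and chr11:69920791-69920820). The site at -74 also lies in the window of another start of Eif5a and is shown once.
Odc1 first: ggtgatgtggtgCGCGTGcgcaggcctgcc
Odc1 second: cgggtgggtgggCACGCGctgcgccccgcc
Sms first: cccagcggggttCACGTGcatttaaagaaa
Sms second: ggagcgtcggtcCACGCGggctcgccgccc
Eif5a first: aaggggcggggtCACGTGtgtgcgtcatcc
Eif5a second: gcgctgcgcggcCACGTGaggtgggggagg
A match is a description of the letters, and binding was not measured. Bases outside these windows were not searched for the motifs.

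The antizyme system was readable on the side of the inhibitor. Azin1 (chr15:38487427-38519266, minus strand) was at 8.70, 8.61 and 8.54 log2 CPM with CpG and at 7.35, 7.42 and 7.38 without. The groups were more than 1 unit apart, with means of 8.62 ± 0.08 and 7.38 ± 0.03 (SD, n = 3 each). The log2FC was 1.23 (SE 0.06, 1.10 to 1.37) or 2.35-fold (limma FDR 8.07e-08), above 88.9% of all tested genes. An antisense gene, Gm49077, overlaps Azin1 over 481 bases.

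Azin1 is a paralog of Odc1, and their coding sequences are 61.6% identical over 1332 aligned bases. Their log2 ratio (Odc1 minus Azin1) was 1.40, 1.51 and 1.48 in stimulated and 1.62, 1.65 and 1.48 in unstimulated replicates 1 to 3. These values overlap. The mean ratio differed by -0.12 between groups (exact two-sided permutation p 0.3, and 0.3 after adjustment), and over the 3 replicate numbers the difference lay between -0.23 and 0.003. Both mRNAs thus rose by a log2FC of more than 1, with a ratio that moved little next to either change.

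Oaz1 (chr10:80826656-80829290, plus strand), the main antizyme, is transcribed in nearly all cell types, but it was listed near the no-read value: -5.01, -5.03 and -3.08 log2 CPM with CpG and -5.01, -5.03 and -5.42 without. None of the 6 values reached that of 3 reads, and Oaz1 was not tested. A pseudogene, Oaz1-ps, holds 47.5% of the 75-base stretches of its transcript. No level of antizyme mRNA was read from these values, and no ratio of Odc1 or Azin1 to Oaz1 was formed. The paralog Oaz2, a second antizyme, could be read and fell from 4.37 ± 0.09 to 3.82 ± 0.05 log2 CPM (SD, n = 3 each), a log2FC of -0.54 (SE 0.09, limma FDR 0.000342). Oaz3 and Azin2 had no sample and 1 sample above 3 reads and were not tested.

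Catabolism held the 1 gene of the set that fell. Sat1 (chrX:155213132-155216449, minus strand) encodes the acetyltransferase that marks spermidine and spermine for export or oxidation. It was at 5.96, 6.72 and 6.19 log2 CPM with CpG and at 7.91, 8.13 and 8.10 without. All stimulated samples were more than 1 unit below all unstimulated ones, and replicate 2 was highest in both groups. The means were 6.29 ± 0.39 and 8.05 ± 0.12 (SD, n = 3 each), a log2FC of -1.76 (SE 0.16, -2.12 to -1.40) or 3.38-fold lower (limma FDR 4.06e-06). Only 5.88% of all tested genes had a lower log2FC. Without replicate 2 of both groups the log2FC was -1.93. The related gene Sat2 was listed at the no-read value in all 6 samples.

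Smox (chr2:131491496-131525922, plus strand) encodes spermine oxidase and was, per length, the least expressed of the 8 genes tested. It was at 2.41, 3.88 and 2.66 log2 CPM with CpG and at 2.88, 4.36 and 2.59 without. Replicate 2 was the highest sample of each group, by more than 1 unit, and the groups overlapped. The means were 2.98 ± 0.79 and 3.28 ± 0.95 (SD, n = 3 each), with a log2FC of -0.29 (SE 0.47, -1.34 to 0.75, limma FDR 0.587). With the replicate number as a block, the SE was 0.14, the interval -0.60 to 0.01 and the limma FDR 0.0723. The interval reached a fall of 1 unit without the block and did not reach it with the block, and neither fit shows that Smox stayed the same.

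The spread of Smox ran beside that of erythroid genes. Replicate 2 minus the mean of the others, averaged over both groups, was 1.48 for Smox. It was 3.11 for Alas2, the erythroid enzyme of heme synthesis, 3.25 for the globin gene Hbb-bs, and 2.05 to 2.82 for Slc4a1, Bpgm and Epb42. For Sat1 it was 0.38, and for the other 6 tested genes of the set it lay between -0.17 and 0.13. The summed erythroid list ranged from 396 to 4973 CPM with CpG and from 419.7 to 3906 CPM without, with 4 globin genes at the no-read value. Without replicate 2 of both groups, the log2FC of Smox was -0.20 (limma FDR 0.345), and without unstimulated replicate 2 alone it was 0.25 (limma FDR 0.569). Values had been adjusted before deposit in a way that touches replicate numbers, so these sizes are those of the adjusted values.

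**Figure D2:**
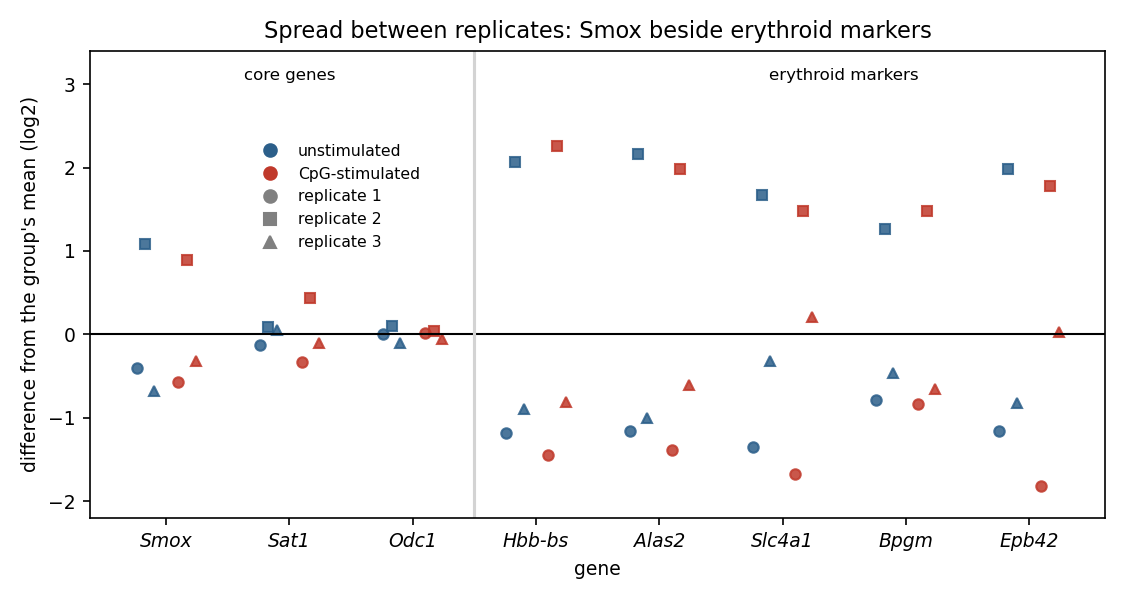
Difference of each sample from its group's mean (log2, y axis) for Smox, Sat1 and Odc1 and for 5 erythroid markers (x axis). Colors mark the group and symbols the replicate number. Replicate 2 (squares) lies above the other replicates for Smox and for every erythroid marker in both groups, while Odc1 stays near 0 in all 6 samples.

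Among the genes of hypusination, the substrate Eif5a and the second enzyme rose, and Dhps did not pass the test. Eif5a (chr11:69916714-69921958, minus strand) was at 11.08, 10.73 and 10.92 log2 CPM with CpG and at 9.50, 9.36 and 9.39 without. It was high in every sample and higher in all stimulated ones, with means of 10.91 ± 0.17 and 9.42 ± 0.07 (SD, n = 3 each). The log2FC was 1.49 (SE 0.09, 1.29 to 1.69) or 2.81-fold (limma FDR 2.64e-07), above 92.7% of all tested genes. Stretches shared with other genes made up 3.60% of its transcript.

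Dhps (chr8:85071757-85075162, plus strand), the enzyme that places the hypusine precursor on the lysine encoded by the codon shown above, was at 4.99, 5.18 and 5.25 log2 CPM with CpG and at 4.91, 5.18 and 5.05 without. The groups overlapped. The means were 5.14 ± 0.13 and 5.05 ± 0.14 (SD, n = 3 each), with a log2FC of 0.09 (SE 0.10, -0.13 to 0.31, limma FDR 0.414). The upper end of this interval is well below the rise of Eif5a. Dhps shares 128 bases with Wdr83 on the other strand, and the strand setting of the counting is not given in the sources used here. Wdr83 itself was at 3.66 to 3.87 log2 CPM with CpG and at 3.39 to 3.45 without.

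Within samples, the log2 ratio of Dhps to Eif5a was -5.77 ± 0.28 with CpG and -4.37 ± 0.21 without (SD, n = 3 each). The difference between groups was -1.40 in the mean and lay between -1.50 and -1.33 for the 3 replicate numbers (exact two-sided permutation p 0.1, the smallest possible, and 0.15 after adjustment over 3 ratios). The second enzyme, Dohh, rose: it was at 6.36, 6.34 and 6.37 log2 CPM with CpG and at 5.63, 5.66 and 5.58 without. Those groups did not overlap, and the log2FC was 0.73 (SE 0.06, limma FDR 2.33e-06). The paralog Eif5a2 was at 3.23, 2.64 and 3.34 log2 CPM with CpG and at 2.76, 2.93 and 3.09 without. Its groups overlapped, with a log2FC of 0.14 (SE 0.19, limma FDR 0.509), and leaving out stimulated replicate 2 gave 0.36 (limma FDR 0.0409).

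Levels of different genes were compared per length, as log2 CPM per kb of exon. Eif5a and Odc1 were the 2 highest of the 8 in both groups. In unstimulated cells the order was Eif5a at 8.17 ± 0.07, Odc1 at 7.20 ± 0.10, Sat1 at 6.57 ± 0.12, Srm at 5.95 ± 0.18, Azin1 at 4.74 ± 0.03, Sms at 3.95 ± 0.02, Dhps at 3.83 ± 0.14 and Smox at 1.31 ± 0.95 (SD, n = 3 each). Sms and Dhps did not differ beyond their spread. With CpG the order became Eif5a at 9.66 ± 0.17, Odc1 at 8.32 ± 0.05, Srm at 7.82 ± 0.19, Azin1 at 5.97 ± 0.08, Sat1 at 4.82 ± 0.39, Sms at 4.81 ± 0.08, Dhps at 3.92 ± 0.13 and Smox at 1.02 ± 0.79 (SD, n = 3 each). Sat1 thus went from the third place to the level of Sms, from which it could not be separated, and Srm passed it. These levels depend on the length used: per length of the longest transcript, stimulated Sat1 stood at 5.85 and Sms at 5.504, a gap still within the spread of Sat1, and the order of the 8 genes was the same. Among the 10584 tested genes with a length, Eif5a stood above 98.8% without and 99.6% with CpG, and Srm above 93.7% and 98.3%.

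**Figure D3:**
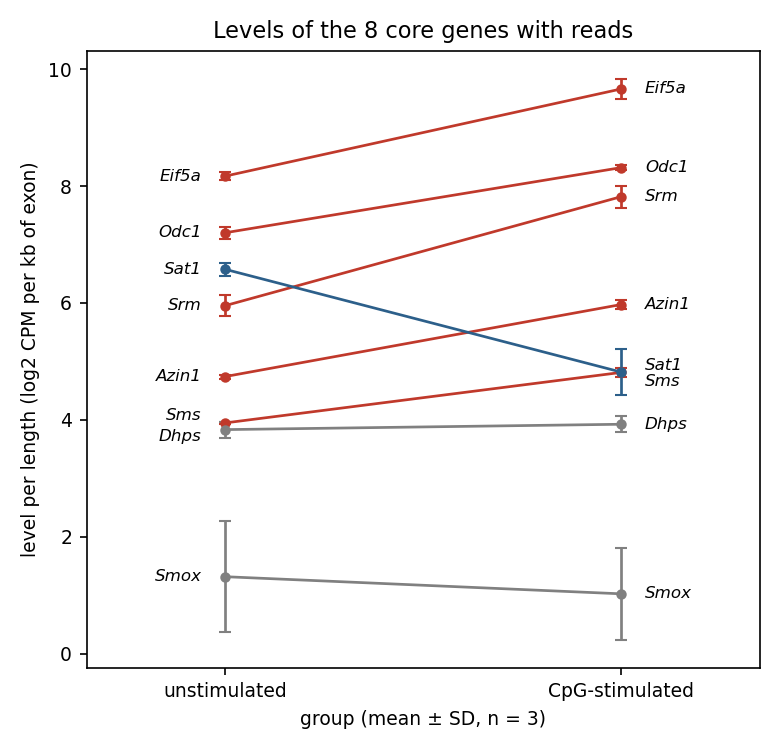
Level per length (log2 CPM per kb of exon, y axis) of the 8 genes with enough reads in unstimulated and CpG-stimulated samples (x axis, mean ± SD, n = 3 each). Red lines mark genes that rose, blue the one that fell and grey those that did not pass the test. Sat1 falls from 6.57 to 4.82 and meets Sms, and Eif5a is highest in both groups.

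A list of 28 further genes of the pathway was described in the same way. Of these, 21 could be tested, and 9 rose, 5 fell and 7 did not pass the test, with a median log2FC of 0.15. The shares of all tested genes given above (37.6% and 36.7%) are the background. With a log2FC over 1, 6 rose, and 1 fell below -1. Slc7a1 and Myc lay near this limit, with 0.92 to 1.11 and 0.95 to 1.13 when single samples were left out. The groups did not overlap for 15 of the 21.

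Genes that feed the aminopropyl donor or clear its remnant gave the largest rises of this list. Mat2a, the catalytic subunit of the synthetase that makes S-adenosylmethionine, was at 9.51, 9.16 and 9.40 log2 CPM with CpG and at 7.17, 7.24 and 7.20 without. The stimulated samples were nearly 2 units higher, with a log2FC of 2.15 (SE 0.09, 4.44-fold, limma FDR 3.13e-08). Its regulatory partner Mat2b fell. Each aminopropyl transfer leaves methylthioadenosine, and of 5 genes that recycle it to methionine 2 rose, 1 fell (Adi1) and 2 did not pass the test (Mri1 and Apip). The fall of Adi1 (log2FC -0.23, limma FDR 0.0186) no longer passed without unstimulated replicate 1 (-0.20, limma FDR 0.0674). Mtap, the first enzyme of this salvage, rose from 4.74 ± 0.08 to 6.44 ± 0.22 log2 CPM (log2FC 1.70, SE 0.11, limma FDR 3.04e-07). Enoph1, a later one, rose from 3.67 ± 0.09 to 5.34 ± 0.09 log2 CPM (log2FC 1.67, SE 0.09, limma FDR 1.26e-07; SD, n = 3 each).

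On the supply of arginine and ornithine, 5 of 6 genes were tested. The arginine importer Slc7a1 rose from 8.18 ± 0.17 to 9.19 ± 0.16 log2 CPM (SD, n = 3 each), a log2FC of 1.01 (SE 0.10, limma FDR 6.99e-06). Arg2 also rose, Oat fell, and Arg1 and Slc3a2 did not pass the test. Of 4 transport genes, 2 had enough reads. Atp13a2, which exports polyamines from lysosomes to the cytosol, was at 3.86, 4.10 and 4.09 log2 CPM with CpG and at 5.99, 6.09 and 6.40 without. That was the most negative change of the list, with a log2FC of -2.14 (SE 0.12, 4.41-fold lower, limma FDR 1.32e-07). Its relative Atp13a3 rose. In catabolism, Paox did not pass the test.

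**Figure D4:**
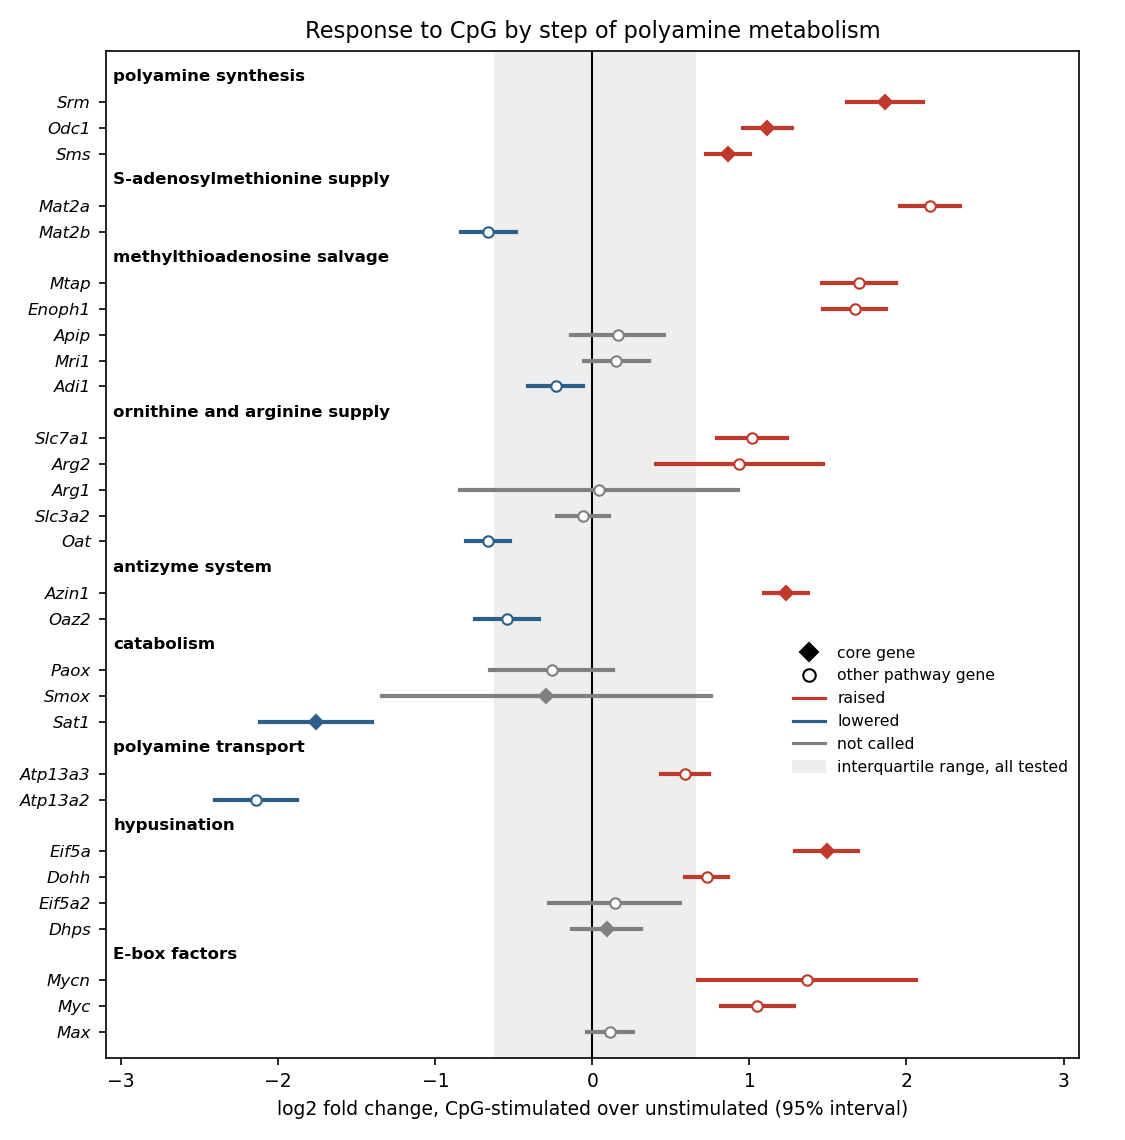
Log2FC of CpG-stimulated over unstimulated samples with its 95% interval (x axis) for the tested genes, grouped by step (y axis). Filled diamonds are 8 of the 10 genes, open circles the 21 further pathway genes, and the grey band is the interquartile range of all tested genes (-0.62 to 0.65). Srm, Eif5a, Azin1, Odc1 and Sms lie to the right of the band, Sat1 and Atp13a2 to its left, and Dhps inside it.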

How the data were processed

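mRNA of 6 samples was used, in the 2 groups and replicate numbers that the labels give. STAR 2.6.1a was used by the authors to map read pairs (75 bases each) to mm10, and featureCounts (Subread 2.0.1) to count them over genes. Quantile normalization and voom then gave the log2 CPM that were deposited, and no raw counts were used. In voom, 0.5 reads stand for no read. This level was taken to be -5.15, the value found most often, and corresponds to a common library of 17.8 M reads. Values of 3 and 10 reads follow from it and cover counting error only, and the samples' own depths are not in the values. In 4426 genes a value lies below the no-read value, so the values had been adjusted further before deposit; for Oaz1 the values of equal replicate numbers are the same in both groups for replicates 1 and 2.

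Values were tested as deposited with limma 3.58.1 in R 4.3.3 (lmFit, then eBayes with a trend) over all 6 samples, for genes above the value of 10 reads in at least 3 samples. Within-sample ratios were compared with exact permutation tests (scipy 1.17.1). Of 6 ratios planned, 3 were run, as Oaz1 and Amd1 had no usable values. Coordinates, exon lengths and transcripts are from GENCODE M21 (GRCm38), and promoter windows from RefSeq (GRCm38.p6). Introns and intergenic sequence were not searched for shared stretches, and the 2 reads of a pair were not considered together. Coding sequences were aligned with Biopython 1.88. The procedure was tested on simulated data.

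Only in the fit with a block and in the sign-flip test were replicate numbers taken to pair the samples. Deviations from the group means correlated at 0.435, 0.224 and 0.300 for equal numbers and at -0.281 to 0.0279 for unequal ones. The adjustment above can also give such correlations. The main fit, which gave the SE, intervals and FDR unless a block is named, did not use the pairing. With the block the SE of each tested gene of the set was smaller, such as 0.06 for Srm and 0.09 for Sat1, against 0.11 and 0.16.

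The 10 genes and all lists were chosen with earlier results of these data known. All 10 were named with values, as were pathway genes with an FDR under 0.05 and an absolute log2FC over 1, direct paralogs, Dohh and Myc; further names complete small counts or stand beside a value and were chosen after the values were seen. Alternatives covered the replicate block, the filter, log2(CPM + 1), the variance trend, the centring, gene length and each sample left out. One marker gene is not reported here.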

Additional observations from a re-analysis of the deposited data

How the results depend on the processing

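Of 376 values of 29 single genes under 13 alternatives, 370 kept their direction and their side of the FDR of 0.05. The replicate block, the filters and the variance trend cannot change a log2FC in this design. Under these alternatives the direction was fixed, and only the FDR could move. Of the 10 genes, 5 rose, 1 fell and 4 exceeded a log2FC of 1 under every alternative, replicate 2 of both groups left out included (an alternative chosen after seeing the data). The 3 reversals were in genes that did not pass the test: Smox gave 0.25 without unstimulated replicate 2 (-0.74 to 0.25 over the samples left out), and Arg1 gave -0.03 without CpG-stimulated replicate 1 and -0.21 without replicate 3. The cause was not tested. Adi1 no longer passed without unstimulated replicate 1 (-0.20, limma FDR 0.0674), Eif5a2 passed without CpG-stimulated replicate 2 (0.36, limma FDR 0.0409), and Mri1 passed without a filter (0.15, limma FDR 0.0300). With the replicate number as a block, the calls of the 10 genes and of the pathway list did not change (5 rose and 1 fell, and 9 rose and 5 fell), and over all genes 4390 rose and 4287 fell. An exact sign-flip test over the pairs gave p values of 0.5, 0.25 and 0.25 for the ratios of Odc1 to Azin1, Srm to Sms and Dhps to Eif5a, where 0.25 is the smallest possible. Leaving out single samples moved these ratios between -0.17 and -0.084, 0.87 and 1.13, and -1.51 and -1.24. Over all genes, 3905 to 4390 rose and 3793 to 4287 fell, and 1331 to 1851 rose by a log2FC over 1, the lowest with log2(CPM + 1). With the longest transcript in place of all exons, levels per length of unstimulated cells became 8.90 for Eif5a, 7.83 for Odc1, 7.61 for Sat1, 6.21 for Srm, 5.10 for Azin1, 4.64 for Sms and 4.63 for Dhps. Those of stimulated cells became 10.39 for Eif5a, 8.94 for Odc1, 8.07 for Srm, 6.33 for Azin1, 5.85 for Sat1, 5.504 for Sms and 4.73 for Dhps. The order was the same in both groups.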

Other observations

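The genes whose pattern over the 6 samples was nearest to that of Odc1 and of Srm, by the Euclidean distance of values centred on each gene's mean among 11232 other tested genes, were listed as a description. Nearest to Odc1 were Mak16 (distance 0.070), Snrpa1 (0.071) and Nus1 (0.073), whose log2FC was 1.14, 1.09 and 1.10. MAK16 is a factor of ribosome assembly, SNRPA1 a part of the U2 snRNP, and NUS1 a subunit of the enzyme that makes dolichol. Nearest to Srm were Bysl (0.087), Rnf157 (0.128) and Wdr12 (0.163), whose log2FC was 1.89, 1.80 and 1.78. BYSL and WDR12 act in the assembly of ribosomal subunits, and RNF157 is a ubiquitin ligase.

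Some genes that many cell types use or that stood beside the set were listed at or near the no-read value. Amd1, Amd2 and Sat2 were at that value in all 6 samples, as were 4 globin genes, while the globin gene Hbb-bs reached 8.46 to 12.16 log2 CPM with CpG. Oaz1 stayed below 3 reads in all 6 samples. Stretches of 75 bases that occur in another annotated gene made up 81.9% of the transcript of Amd1, 47.5% of that of Oaz1 and none of that of Sat2, and 30.5% of that of Odc1, which stood above 97.8% of genes per length in unstimulated cells. Whether shared stretches bear on these values was not tested, and 5443 genes in all were at the no-read value in every sample.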
